A study of Mus musculus with 8 samples.

Results

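The myeloid C-type lectin receptors studied here were 8 genes, Clec4a1, Clec4a2, Clec4a3, Clec4d, Clec4e, Clec4n, Clec5a and Clec12a, chosen by gene symbol from the 54752 genes counted in each library. Earlier results of these data were known when the genes were chosen. RNA was sequenced from the right cerebral cortex of 4 Sham and 4 BCAS mice, 1 mouse per library, 3 weeks after surgery. The mice of both groups were wild-type (WT) adult male C57BL/6 animals (C57BL/6 J in the study's methods), and the groups differed in the surgery. BCAS stands for bilateral carotid artery stenosis, in which both common carotid arteries are narrowed by microcoils so that the brain receives less blood. The coil on the right, the sampled side, was the narrower one. The Sham mice were operated on without coils. The comparison asks how the genes of the hypoperfused cortex differ from those of the sham-operated cortex.

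C-type lectin receptors are membrane proteins with an extracellular lectin fold that binds sugars, lipids or crystals of microbes and of damaged cells, and those studied here are carried mainly by macrophages, monocytes, neutrophils and dendritic cells. The activating receptors Clec4n (Dectin-2), Clec4d (MCL) and Clec4e (Mincle) signal through the adaptor Fcer1g, and Clec5a (MDL-1) signals through the adaptors Tyrobp (DAP12) and Hcst (DAP10). Fcer1g and Tyrobp recruit the kinase Syk, which acts through Card9, Bcl10 and Malt1 on NF-kappaB. Clec4a2 (DCIR) and Clec12a (MICL) carry an inhibitory motif that recruits the phosphatases Ptpn6 (SHP-1) and Ptpn11 (SHP-2), and Clec4a1 and Clec4a3 are close relatives of Clec4a2.

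All 8 genes lie on chromosome 6 of the mm10 genome. Clec4a1, Clec4a3, Clec4a2, Clec4n, Clec4d and Clec4e follow each other in this order between positions 122921848 and 123289870, where Clec4e is the gene read from the minus strand and the other members are read from the plus strand. Clec5a lies apart at 40574894 to 40585821 on the minus strand, and Clec12a at 129342691 to 129365303 on the plus strand. No exon base of the 8 genes was shared with another annotated gene. Within their transcripts, Clec4a2 was the member with 100-base stretches that also occur in another gene, namely 64 of 2990 stretches (2.14%), which match Clec4a4.

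Promoter windows were read from RefSeq for GRCm38.p6, the assembly known as mm10, and run from 250 bases before to 50 bases after the annotated start. The core letters bound by PU.1, the myeloid factor encoded by Spi1, were searched for as GAGGAA on both strands. Windows were found for 7 of the 8 members (Clec4n had no entry), 8 windows in all. Of these, 3 are shown because Clec4d and Clec4e, which stand next to each other, were counted in BCAS libraries alone, whereas Clec4a2 was the member closest to its Sham level. The capitals mark GAGGAA or its reverse complement.
Clec4d: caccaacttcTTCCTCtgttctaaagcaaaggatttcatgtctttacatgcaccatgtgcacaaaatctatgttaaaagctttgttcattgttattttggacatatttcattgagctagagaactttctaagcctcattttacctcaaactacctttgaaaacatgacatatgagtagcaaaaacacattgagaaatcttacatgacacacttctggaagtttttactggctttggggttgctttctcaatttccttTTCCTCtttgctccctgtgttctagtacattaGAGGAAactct
Clec4e: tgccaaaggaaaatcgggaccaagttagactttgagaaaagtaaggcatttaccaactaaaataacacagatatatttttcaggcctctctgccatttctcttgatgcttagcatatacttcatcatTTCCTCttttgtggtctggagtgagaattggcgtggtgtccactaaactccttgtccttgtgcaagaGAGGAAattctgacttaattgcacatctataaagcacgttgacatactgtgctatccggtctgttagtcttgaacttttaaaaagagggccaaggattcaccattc
Clec4a2: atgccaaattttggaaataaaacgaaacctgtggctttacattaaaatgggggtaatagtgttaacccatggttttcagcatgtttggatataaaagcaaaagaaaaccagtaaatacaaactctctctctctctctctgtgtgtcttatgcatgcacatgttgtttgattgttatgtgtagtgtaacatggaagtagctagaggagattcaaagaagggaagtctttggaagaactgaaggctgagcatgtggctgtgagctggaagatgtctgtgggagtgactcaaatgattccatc

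The window of Clec4d is chr6:123261857-123262156 on the plus strand, that of Clec4e is chr6:123289822-123290121 on the minus strand, and that of Clec4a2 is chr6:123122440-123122739 on the plus strand. The core was found 3 times in the window of Clec4d, 2 times in that of Clec4e and not in that of Clec4a2. It was present in a window of 6 of the 7 members, and in 28.3% of all 32851 promoter windows. The letters TTGCNNAA of C/EBP factors were found in the windows of Clec4e and Clec12a and in 10.8% of all windows. The letters TGANTCA of AP-1 were found in those of Clec4a2 and Clec12a and in 7.81% of all windows. Matches to different motifs were counted separately. The matches describe letters and not binding. For Clec4a2 and Clec12a the annotation used for counting starts the gene upstream of the RefSeq window, at 123106428 and 129342691.

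The total counts were 16759364 to 18564612 in Sham and 17498316 to 21794435 in BCAS libraries, and 3 counts in the smallest library equal 0.179 CPM (counts per 1000000). The test was edgeR's quasi-likelihood test, and a call needed a Benjamini-Hochberg adjusted p below 0.05 together with a log2 fold change of more than 1 in size. Of 17136 tested genes, 1877 (11.0%) were called higher and 220 (1.28%) lower in BCAS mice, and in 3160 (18.4%) every BCAS library lay above every Sham library. The median log2 fold change of all tested genes was -0.0063. The tissue label was checked by 8 neuron markers, which summed to 9058 to 10494 CPM in Sham mice and 3688 to 7721 CPM in BCAS mice, with 1 of 8 (Snap25) called lower. Of astrocyte markers 2 of 6 (Gfap and Aqp4) were called higher, and none of the 6 oligodendrocyte or 5 hemoglobin and heme markers was called. The hemoglobin and heme markers still summed to 59.2 to 80.6 CPM in Sham mice and to 94.4 to 123 CPM in BCAS mice. Hba-a1 and Hbb-bs had log2 fold changes of 0.41 and 0.58, past the p threshold but not the fold threshold (edgeR, adjusted p = 0.0288 and 0.0155). Summed pan-myeloid markers (Aif1, Csf1r, Itgam, Ptprc, Laptm5, Spi1 and Cd53) took 161 to 193 CPM in Sham mice and 702 to 2850 CPM in BCAS mice, and all 7 rose. In bulk tissue, more cells of a type and more RNA per cell cannot be told apart.

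Of the 8 receptors, 6 passed the filter on low counts, and 4 of these were called higher in BCAS cortex, none lower. Clec12a had the largest log2 fold change in the edgeR fit, 3.99, followed by Clec5a at 3.40, Clec4a1 at 3.30 and Clec4a3 at 2.58. The order depended on the fit, as limma-voom gave 3.15 for Clec12a, 3.25 for Clec5a and 3.44 for Clec4a1. Clec4n and Clec4a2 had log2 fold changes of 2.01 and 0.84 and were not called. Clec4d and Clec4e had no count in any Sham library and too few counts in BCAS mouse 2 (and, for Clec4e, mouse 4) to pass the filter, so they were not tested. The median over the 6 tested members was 2.94. A gene can pass the filter through the group in which it is high, so these counts describe the genes that passed and not all 8 members. The members and the gene lists used below were also chosen with earlier results of these data known. Their counts of calls are therefore no test against the share over all genes. Every BCAS library lay above every Sham library in 3 of the 6 tested members. Without BCAS mouse 2, the BCAS mouse with the lowest receptor and myeloid levels, Clec4d passed the filter, and Clec4a2, Clec4d and Clec4n were called too. Without any 1 of the Sham mice, or without BCAS mouse 3, 3 members were called.

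**Figure D1:**
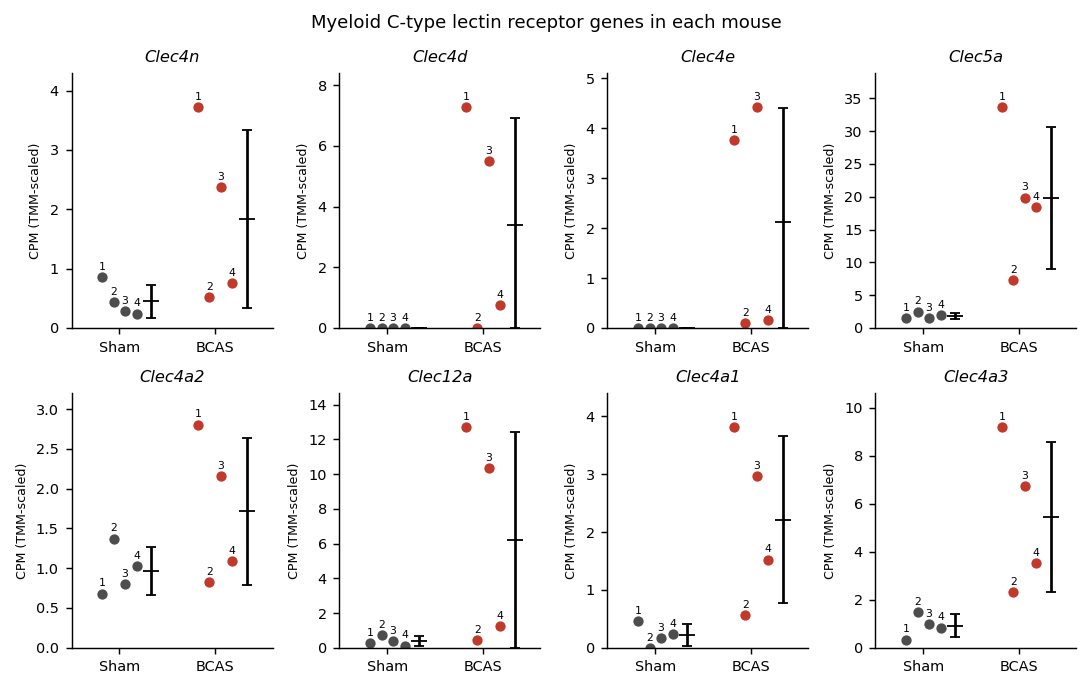
Each panel plots the TMM-scaled CPM of a receptor gene in the 4 Sham (grey) and 4 BCAS (red) libraries on a linear axis from 0, with the mouse number beside each point and the mean ± SD (n = 4, cut at 0) beside the points. BCAS mice 1 and 3 carried the highest values in every panel, and BCAS mouse 2 the lowest of the BCAS mice.

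Among the activating receptors, Clec5a, an activating receptor of macrophages and neutrophils, was counted most. It had 26, 40, 27 and 33 counts in Sham mice 1 to 4 and 769, 141, 369 and 339 counts in BCAS mice 1 to 4. The lowest BCAS mouse thus lay well above the highest Sham mouse. Its level was 1.87 ± 0.471 CPM (SD, n = 4) in Sham and 19.8 ± 10.8 CPM (SD, n = 4) in BCAS mice. The log2 fold change was 3.40 (SE 0.44), with an adjusted p of 0.00220 (edgeR quasi-likelihood test, Benjamini-Hochberg). Clec5a was also the member called when the test asked for a log2 fold change beyond 1 rather than beyond 0.

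Clec4n, a receptor for fungal mannans, had 15, 7, 5 and 4 counts in Sham mice 1 to 4 and 85, 10, 44 and 14 counts in BCAS mice 1 to 4. BCAS mice 1 and 3 lay above all Sham mice, whereas BCAS mice 2 and 4 fell within the Sham range. Its level was 0.453 ± 0.278 CPM (SD, n = 4) in Sham and 1.84 ± 1.50 CPM (SD, n = 4) in BCAS mice. The log2 fold change of 2.01 (SE 0.69) missed the threshold, with an adjusted p of 0.0507 (edgeR quasi-likelihood test, Benjamini-Hochberg). Of 19 alternatives, 5 called it. These were DESeq2 (adjusted p = 0.0164), the library size alone (edgeR, 0.0446), counts thinned to the smallest library (edgeR, 0.0491), a replicate block (edgeR, 0.0454) and leaving out BCAS mouse 2 (edgeR, 0.0107). The other 14 did not call it, among them limma-voom (adjusted p = 0.116) and limma on log2(CPM + 1) (adjusted p = 0.0903).

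Clec4d, which pairs with Mincle, had 166, 0, 102 and 14 counts in BCAS mice 1 to 4 and 0 counts in all 4 Sham mice. The 282 BCAS counts came from 3 of the 4 mice, and BCAS mouse 2 did not differ from the Sham mice. The BCAS mean of 3.38 ± 3.55 CPM (SD, n = 4) lay at least 19.1-fold higher than 3 counts per Sham library would (0.177 CPM). The group means gave p = 0.143 (exact two-sided permutation test, 70 arrangements, smallest possible p = 0.0286). With no filter beyond 1 count Clec4d was tested and called (edgeR quasi-likelihood test, Benjamini-Hochberg adjusted p = 0.0159). It was also called without BCAS mouse 2 (edgeR adjusted p = 0.00369, exact permutation p = 0.0286), but not when any 1 of the Sham mice was left out (edgeR adjusted p = 0.0686 to 0.0793).

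Clec4e encodes Mincle, which binds mycobacterial cord factor and the nuclear protein Sap130 released by dead cells. It had 86, 2, 82 and 3 counts in BCAS mice 1 to 4 and 0 counts in all 4 Sham mice. The 4 BCAS mice were thus above the Sham mice, but mice 2 and 4 only by 2 and 3 counts. The BCAS mean of 2.11 ± 2.30 CPM (SD, n = 4) lay at least 11.9-fold higher than 3 counts per Sham library would. The group means gave p = 0.0286 (exact two-sided permutation test), the smallest the design allows, and p = 0.171 without any 1 of the Sham mice. With no filter beyond 1 count Clec4e was called too (edgeR quasi-likelihood test, Benjamini-Hochberg adjusted p = 0.0175).

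Among the receptors with an inhibitory motif, Clec12a, a receptor for uric acid crystals on granulocytes, monocytes and dendritic cells, had 5, 12, 7 and 2 counts in Sham mice 1 to 4. It had 290, 9, 192 and 23 counts in BCAS mice 1 to 4. BCAS mice 1 and 3 stood far above the rest, mouse 4 was just above the Sham mice, and mouse 2 was among them. Its level was 0.388 ± 0.266 CPM (SD, n = 4) in Sham and 6.19 ± 6.24 CPM (SD, n = 4) in BCAS mice. The log2 fold change was 3.99 (SE 1.06), with an adjusted p of 0.0231 (edgeR quasi-likelihood test, Benjamini-Hochberg). The call was lost with limma-voom (adjusted p = 0.155) and limma on log2(CPM + 1) (adjusted p = 0.0665). It was also lost without Sham mouse 1, 2, 3 or 4 or BCAS mouse 3, at edgeR adjusted p of 0.0701, 0.0514, 0.0551, 0.0667 and 0.0567.

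Clec4a2, the inhibitory receptor DCIR, had 12, 22, 14 and 17 counts in Sham mice 1 to 4 and 64, 16, 40 and 20 counts in BCAS mice 1 to 4. BCAS mice 1 and 3 lay above the Sham mice, and BCAS mice 2 and 4 lay within their range. Its level was 0.969 ± 0.303 CPM (SD, n = 4) in Sham and 1.72 ± 0.925 CPM (SD, n = 4) in BCAS mice. The log2 fold change of 0.84 (SE 0.43) was not called, with an adjusted p of 0.157 (edgeR quasi-likelihood test, Benjamini-Hochberg), and 0.0480 without BCAS mouse 2.

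Both relatives of Clec4a2 were called higher. Clec4a1 had 8, 0, 3 and 4 counts in Sham mice 1 to 4 and 87, 11, 55 and 28 counts in BCAS mice 1 to 4. Clec4a3 had 6, 24, 17 and 14 counts in Sham mice 1 to 4 and 210, 45, 125 and 65 counts in BCAS mice 1 to 4. The groups overlapped in neither gene. The log2 fold change was 3.30 (SE 0.77) for Clec4a1, with an adjusted p of 0.0149, and 2.58 (SE 0.53) for Clec4a3, with an adjusted p of 0.00952 (edgeR quasi-likelihood test, Benjamini-Hochberg). In CPM, Clec4a1 went from 0.217 ± 0.188 to 2.22 ± 1.45 and Clec4a3 from 0.913 ± 0.474 to 5.45 ± 3.12 (SD, n = 4 mice each). Neither was called when the test asked for a log2 fold change beyond 1 (edgeR, adjusted p = 0.0795 and 0.0634).

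Levels of different genes were compared per kb of exon. In Sham mice, Clec4a3 led at 0.688 ± 0.358 CPM per kb (SD, n = 4), followed by Clec5a (0.488), Clec4a2 (0.331), Clec4n (0.319), Clec4a1 (0.139) and Clec12a (0.0702). In BCAS mice, Clec5a led at 5.16 ± 2.82 CPM per kb (SD, n = 4). It was followed by Clec4a3 (4.10), Clec4d (2.12), Clec4a1 (1.42), Clec4n (1.30), Clec12a (1.12), Clec4a2 (0.587) and Clec4e (0.426). Clec4a2 thus moved from the third place to the seventh. Neighbours in either order overlapped in their values over mice, except Clec12a above the 0 of Clec4d in Sham mice. Within each mouse, Clec5a stood above Clec4a3 in 4 of 4 BCAS libraries and Clec4a3 above Clec5a in 3 of 4 Sham libraries.

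The 4 BCAS mice ranked in the same order, mouse 1, 3, 4 and 2, for all members but Clec4e, in which mouse 3 led mouse 1. The share of the summed BCAS level that mice 1 and 3 carried was 67.6% for Clec5a and 72.2% to 82.7% for Clec4a1, Clec4a2, Clec4a3 and Clec4n. It was 93.1% for Clec12a, 94.4% for Clec4d and 96.9% for Clec4e. For the summed pan-myeloid markers it was 67.4%.

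BCAS mice 3 and 4 carried nearly the same amount of pan-myeloid transcript, 1494 and 1396 CPM, so their receptor levels can be set side by side. The ratio of mouse 3 to mouse 4 was 1.07 for the pan-myeloid sum (95% counting interval 1.05 to 1.09) and 1.08 for Clec5a (0.928 to 1.25). It was 1.95 for Clec4a1 (1.21 to 3.19), 1.98 for Clec4a2 (1.13 to 3.58), 1.91 for Clec4a3 (1.40 to 2.61) and 3.11 for Clec4n (1.67 to 6.15). It reached 7.22 for Clec4d (4.11 to 13.7), 8.27 for Clec12a (5.35 to 13.4) and 27.1 for Clec4e (8.95 to 134). The intervals cover counting error only and compare these mice and not the groups.

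Markers of other leukocytes differed between the same mice. The ratio of mouse 3 to mouse 4 was 0.898 for homeostatic microglia markers (0.886 to 0.910), 1.86 for border-associated macrophage markers (1.71 to 2.03) and 1.95 for monocyte markers (1.80 to 2.12). Vcan held 722 and 620 of the monocyte marker counts in BCAS mice 3 and 4 and was also high in Sham mice, and without it, a choice made after seeing the data, the monocyte ratio was 3.80 (3.32 to 4.36). The ratio was 3.21 for lymphocyte markers (2.78 to 3.72) and 4.30 for neutrophil markers (3.29 to 5.70). The 11 neutrophil markers summed to 0.436 to 1.08 CPM in Sham mice and to 12.7, 0.977, 15.7 and 3.64 CPM in BCAS mice 1 to 4. None of the 11 passed the filter, and Ly6g and Elane were at 0 in all 8 libraries. S100a9, a calcium-binding protein abundant in neutrophils, had 6, 1, 4 and 0 counts in Sham mice 1 to 4, against 92, 7, 98 and 16 in BCAS mice 1 to 4. Cxcr2, a chemokine receptor of neutrophils, had 2, 0, 0 and 2 counts in Sham mice 1 to 4, against 71, 0, 65 and 4 in BCAS mice 1 to 4. Both stood highest in BCAS mice 1 and 3, as did S100a8, Mmp8 and Retnlg, whereas Mpo (2, 1, 0 and 5 counts in BCAS mice 1 to 4), Camp (0, 0, 0 and 3), Ngp (5, 5, 3 and 8) and Ltf (9, 1, 5 and 8) had their highest CPM in mouse 4. The 8 monocyte markers summed to 21.9 to 29.7 CPM in Sham and 33.2 to 152 CPM in BCAS mice, and 2 of 3 tested, Ly6c2 and Ccr2, were called higher. Of border-associated macrophage markers 5 of 7 tested were called higher, of dendritic cell markers 2 of 5 and of lymphocyte markers 2 of 2 (Cd8a and Cd4). Homeostatic microglia markers summed to 322 to 388 CPM in Sham and 1295 to 4735 CPM in BCAS mice, and all 11 were called higher. The part of these cells in the receptor levels was not tested.

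**Figure D2:**
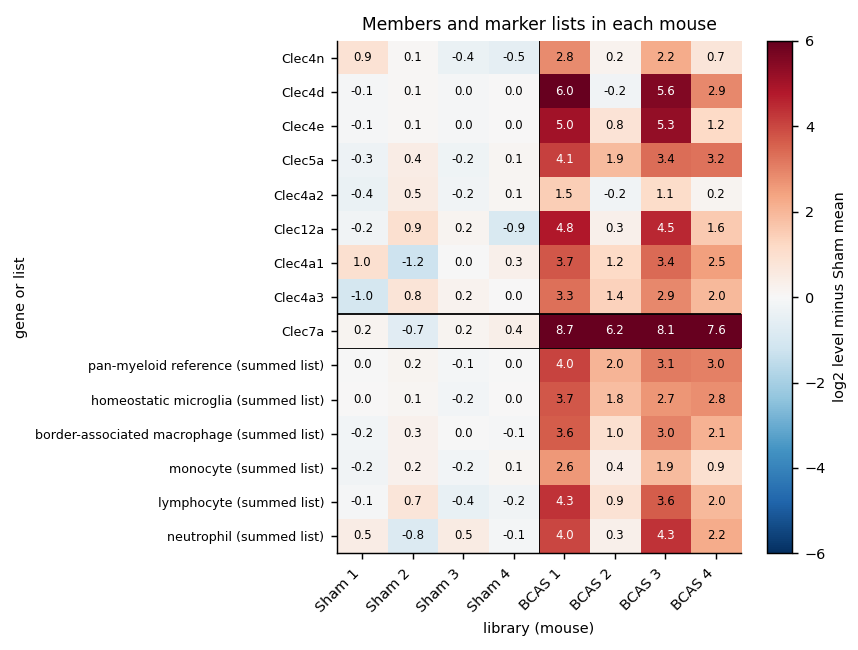
The heat map gives the log2 level of each receptor, of Clec7a and of summed marker lists (rows) in each of the 8 libraries (columns), minus the Sham mean, with red above and blue below it. Single genes carry a prior count of 2, which shrinks low genes and sets the values of Clec4d and Clec4e, and Clec5a stood at 4.11, 1.91, 3.36 and 3.25 in BCAS mice 1 to 4.

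Setting each receptor against the summed pan-myeloid counts of its own library gives its level per unit of myeloid transcript. In all, 11 such relations, 8 of members and 3 of other genes named further on, were tested by exact two-sided permutation tests, and their p-values are unadjusted. Per 1000 pan-myeloid counts, Clec5a had 8.69, 12.9, 9.57 and 11.9 counts in Sham mice and 11.8, 10.3, 13.3 and 13.2 counts in BCAS mice 1 to 4. The groups overlapped, with a log2 difference of 0.17 (exact p = 0.286). The sign of this difference changed, to -0.078, when the mean of the log2 levels of the list was the reference. With homeostatic microglia markers as the reference it was 0.46 (exact p = 0.0571). Clec5a and the pan-myeloid sum, most of which was Csf1r and Laptm5, thus differed from Sham by similar factors in these libraries. The single pan-myeloid markers differed more widely, with edgeR log2 fold changes from 2.76 (Csf1r) to 4.30 (Ptprc).

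Clec4a2 had 4.01, 7.09, 4.96 and 6.11 counts per 1000 pan-myeloid counts in Sham mice 1 to 4, against 0.984, 1.17, 1.44 and 0.779 in BCAS mice 1 to 4. All BCAS mice lay below all Sham mice. The mean fell from 5.54 ± 1.34 to 1.09 ± 0.282 (SD, n = 4 mice each), a log2 difference of -2.36 (exact two-sided permutation test, p = 0.0286, the smallest the design allows). The ratio of Clec4a2 to Clec5a counts, chosen after its values were seen and given without a test, was 0.462, 0.550, 0.519 and 0.515 in Sham mice. It was 0.0832, 0.113, 0.108 and 0.0590 in BCAS mice, so its mean was 5.62 times higher in Sham mice.

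Clec4n had 5.01, 2.26, 1.77 and 1.44 counts per 1000 pan-myeloid counts in Sham mice 1 to 4, against 1.31, 0.733, 1.59 and 0.545 in BCAS mice 1 to 4. BCAS mouse 3 lay above Sham mouse 4, whereas on the log2 scale with 0.5 counts added the difference was -1.36 (exact two-sided permutation test, p = 0.0286). With homeostatic microglia markers as the reference it was -1.06 (exact p = 0.143), and without any 1 of the Sham mice, BCAS mouse 2 or BCAS mouse 4 the exact p was 0.0571. Clec4a3 had a difference of -0.54 (exact p = 0.286), Clec4a1 of 0.36 (exact p = 0.857) and Clec12a of 0.040 (exact p = 0.943). For Clec4d and Clec4e, at 0 in the Sham mice, the relative level reached 3.68 and 2.96 counts per 1000 in BCAS mouse 3 and was 0.545 and 0.117 in BCAS mouse 4. On the log2 scale their differences depended on the count added, 1.96 and 1.71 with 0.5 counts and 0.50 and 0.023 with 2 counts. With 0.5 counts the exact p was 0.314 for each, and it was 0.0286 for Clec4d without BCAS mouse 2 and for Clec4e without BCAS mouse 4.

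**Figure D3:**
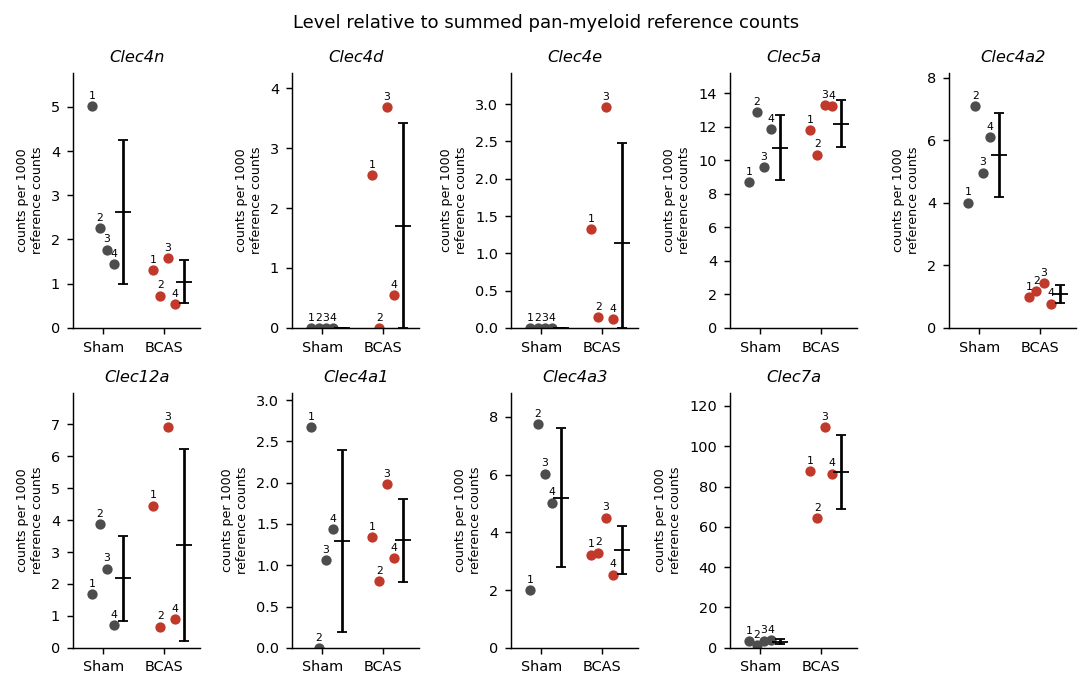
Each panel plots counts per 1000 summed pan-myeloid counts (linear axis from 0) for a receptor or Clec7a in the 4 Sham (grey) and 4 BCAS (red) libraries, with mouse numbers and the mean ± SD (n = 4, cut at 0). The groups overlap for Clec5a, lie apart for Clec4a2 with BCAS lower, and lie apart for Clec7a with BCAS higher.

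Counting from the lowest coordinate of Clec4a1 to that of Clec4e, 360 kb apart, 13 genes are annotated, of which 6 are members. The 7 other genes each had under 10 counts over the 8 libraries, and 4 of them had none. Among these are Clec4a4 and Clec4b1, lectin genes that lie between Clec4a3 and Clec4a2, which had 2, 2, 2 and 0 and 2, 0, 1 and 2 counts in BCAS mice 1 to 4 and none in Sham mice. Clec4b2, between Clec4a2 and Clec4n, had no count. Neighbouring genes thus differed widely in counts, from Clec4a3 and Clec4a2, present in each of the 8 libraries, to these genes.

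**Figure D4:**
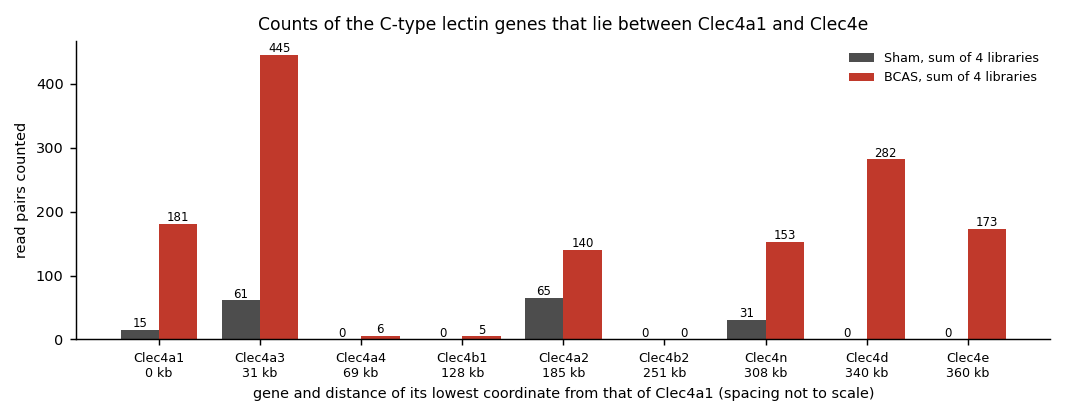
Bars give the read pairs counted on each lectin gene between Clec4a1 and Clec4e, summed over the 4 Sham (grey) or 4 BCAS (red) libraries, in genome order and with unequal spacing not drawn to scale. Clec4d and Clec4e reach 282 and 173 counts in BCAS mice with none in Sham mice, and Clec4b2 has none in either group.

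Of the 33 other C-type lectin genes listed for comparison, 18 passed the filter and 11 of these were called higher, with none lower and a median log2 fold change of 1.57. Clec7a, which encodes the beta-glucan receptor Dectin-1, had 10, 4, 10 and 11 counts in Sham mice 1 to 4 and 5708, 880, 3037 and 2218 counts in BCAS mice 1 to 4. Its log2 fold change was 8.12 (SE 0.63; edgeR quasi-likelihood test, Benjamini-Hochberg adjusted p = 0.00146). Per 1000 pan-myeloid counts, Clec7a went from 1.29 to 3.95 in Sham mice to 64.5 to 109 in BCAS mice, a log2 difference of 4.85 (exact two-sided permutation test, p = 0.0286). No member with counts in Sham mice separated upward in this way. Mrc2, a collagen-binding member of the mannose receptor family, rose by 2.50, Clec9a, a dendritic cell receptor for actin of dead cells, by 2.12 and Mgl2, a galactose-type lectin, by 1.95 on the log2 scale (edgeR quasi-likelihood test, adjusted p = 0.00254, 0.0265 and 0.0317). Cd209f and Cd302 had log2 fold changes of 0.55 and 0.63 and were not called (edgeR quasi-likelihood test, adjusted p = 0.545 and 0.0889). Clec2l and Clec11a had log2 fold changes of -0.78 and -0.82, past the p threshold but not the fold threshold (edgeR quasi-likelihood test, adjusted p = 0.0204 and 0.0406).

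All 20 genes listed for the signalling of these receptors were tested, and 15 were called higher, with none lower and a median log2 fold change of 2.59. Among the adaptors, Tyrobp rose by 4.32 (SE 0.36), Fcer1g by 4.17 (SE 0.43) and Hcst by 2.51 (SE 0.57) on the log2 scale (edgeR quasi-likelihood test, adjusted p = 0.00146, 0.00146 and 0.0136). Per 1000 pan-myeloid counts, Tyrobp went from 38.6 to 85.0 and Fcer1g from 29.0 to 56.0 (group means), and in both all BCAS mice lay above all Sham mice (p = 0.0286 each by the exact permutation test). The Src-family kinase Fgr rose by 5.74 (SE 0.77; edgeR quasi-likelihood test, adjusted p = 0.00252). The kinase Syk rose by 2.98 and the scaffold Card9 by 2.42 on the log2 scale (edgeR quasi-likelihood test, adjusted p = 0.00429 and 0.00264). Bcl10, Malt1, Rela and Traf6 had log2 fold changes of 0.89, 0.88, 0.97 and 0.40, with adjusted p under 0.05 but below the fold threshold. Of the phosphatases, Ptpn6 rose by 4.06 (adjusted p = 0.00201) and Inpp5d by 2.68 (adjusted p = 0.00280), whereas Ptpn11, found in most cell types, had 0.028 (edgeR quasi-likelihood test, adjusted p = 0.832).

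**Figure D5:**
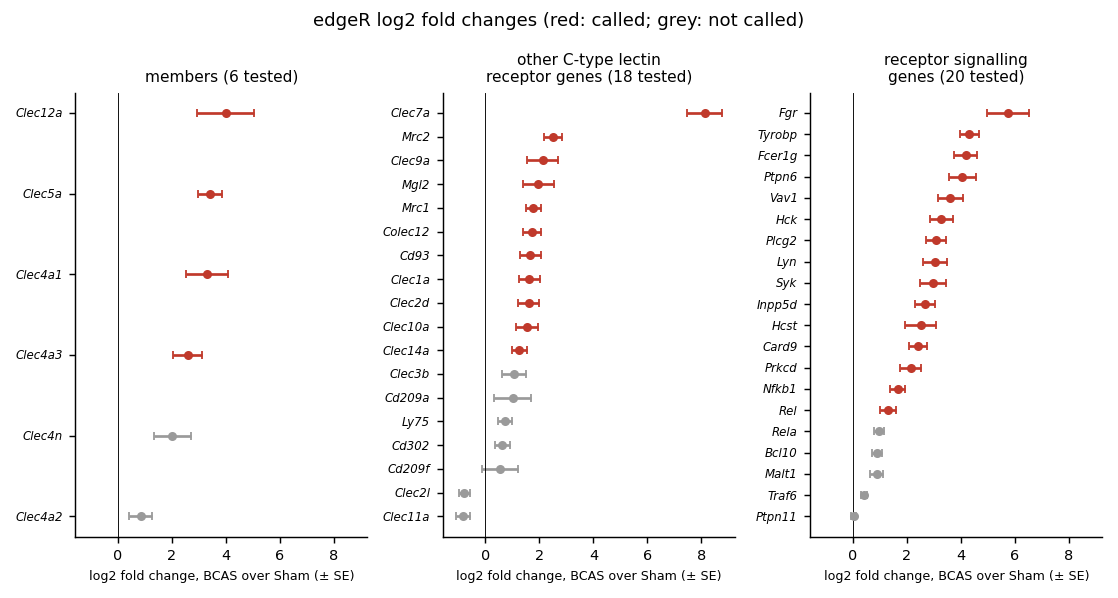
Points give the edgeR log2 fold change of BCAS over Sham mice (horizontal axis, bars ± SE) for the tested members, the other C-type lectin genes and the signalling genes, with called genes in red. Clec7a lies farthest to the right at 8.12, and Clec4a2 is the leftmost member at 0.84.

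Among genes for known Mincle ligands, Sap130 had a log2 fold change of -0.046 (edgeR quasi-likelihood test, adjusted p = 0.655). Ugcg, which makes glucosylceramide, had -0.40, past the p threshold but not the fold threshold (edgeR quasi-likelihood test, adjusted p = 0.0116). Among 11 cytokine genes that Syk and Card9 signalling can induce, 3 passed the filter, all with their counts mainly in BCAS mice. Ccl3 rose by 7.64, Ccl4 by 5.92 and Il1b by 3.25 on the log2 scale (edgeR quasi-likelihood test, adjusted p = 0.000876, 0.00280 and 0.00924). Tnf had 2, 0, 3 and 3 counts in Sham mice 1 to 4 and 142, 5, 44 and 26 counts in BCAS mice 1 to 4. Cxcl1, which draws neutrophils, had 0, 1, 5 and 2 counts in Sham mice and 91, 2, 80 and 23 counts in BCAS mice 1 to 4, so that mice 1 and 3 again stood highest. Il23a had 6, 1, 3 and 5 counts in Sham mice 1 to 4, against 5, 1, 6 and 3 in BCAS mice 1 to 4, and Il10 had no count in any library.

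The gene with the profile most like that of each member was found among the tested genes, as the smallest root-mean-square difference in log2 level relative to the Sham mean over the 8 libraries. For Clec5a it was Hcls1, with a difference of 0.121. The nearest genes were Crip1 for Clec4a2 (0.207), Mamdc2 for Clec4a3 (0.275), Ncapg for Clec4n (0.362) and Il1a for Clec4a1 (0.385). They were Plbd1 for Clec12a (0.495), Steap4 for Clec4d (0.600) and Hp for Clec4e (0.617). The profiles of Clec4d and Clec4e rest on the prior count of 2 in the libraries at or near 0, and no other prior count was tried. The 5 genes nearest to the mean profile of the 6 tested members were Cp (0.104), Ifi47 (0.187), Apod (0.193), Stab1 (0.196) and Birc3 (0.201). These profiles share the libraries and describe likeness only.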

How the data were processed

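After trimming and alignment to mm10 with HISAT2, the authors deposited raw counts of read pairs per gene from featureCounts, without normalization. The submitters' notes name featureCounts 1.6.3, whereas the deposited headers name 2.0.1 with GENCODE vM20. The recorded command gave no strand option. Each library came from 1 mouse, so replicates are separate animals, and groups follow the labels.

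Counts were analysed with edgeR 4.0.16 in R 4.3.3 with TMM scaling, filterByExpr (minimum count 10, minimum total 15) and the quasi-likelihood test of BCAS against Sham mice on the 17136 genes left, adjusted by Benjamini-Hochberg over all of them. CPM are counts per 1000000 scaled counts. Exact two-sided permutation tests of single values ran over 70 arrangements, with 0.5 counts added before logs of ratios. Counting intervals are exact 95% intervals for the ratio of 2 counts, and folds against 0 use 3 counts per library. The edgeR, DESeq2 and limma fits were run on simulated counts with known changes, as many up as down. That simulation did not cover the permutation tests, the ratios or the folds against 0. The members and gene lists were chosen with earlier results of these data known.

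Genes named are all members and, from the lists of lectins, signalling genes, ligands and cytokines, up to 4 called genes with the largest and up to 2 tested genes with the smallest change. Named too are Fcer1g, Tyrobp, Hcst, Syk, Card9, Ptpn6, Inpp5d, Clec7a, Clec4a4, the Clec4b genes and the nearest profiles. From marker lists, fewer are named, and 1 gene of the ligand list is not reported here. Bcl10, Malt1, Rela, Clec2l, Clec11a, Tnf, Cxcl1, Il23a, Il10, Vcan, Hba-a1, Hbb-bs and the single neutrophil markers were chosen after their values were seen. Alternatives were DESeq2 1.42.0, limma 3.58.1, other scalings and filters, thinned counts, a replicate block, leaving out each mouse and other references.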

Additional observations from a re-analysis of the deposited data

How the results depend on the processing

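Over 323 alternatives, 271 kept the direction and the side of the threshold, 25 lost and 10 gained a call, 8 counts moved by over 1.5 times and 9 signs changed. When the test asked for a log2 fold change beyond 1, Clec4a1 (3.30), Clec4a3 (2.58) and Clec12a (3.99) lost their calls, 744 genes and 1 member were called in place of 2097 and 4, and 2 in place of 11 other lectin genes were called. With no fold threshold 5490 genes were called. At least 10 counts in every library left 2 members tested and 1 called, and 7 other lectin genes called. Clec12a also missed its call with limma-voom (3.15), limma on log2(CPM + 1) (1.80) and a replicate block (3.42). Clec4n was called with the library size alone (2.11), DESeq2 (2.03), thinned counts (1.98) and the block (1.85), and Clec4d with no filter (fitted 8.96, no bound). The replicate numbers gave no sign of pairs (correlations of -0.0455, -0.1031, -0.0082 and 0.0013 between same-numbered mice), and no BCAS mouse was most like the Sham mouse of its own number. Such correlations cannot exclude a pairing, and the labels do not say what the numbers mean. With the numbers as pairs the exact test cannot give a p under 0.125, which was the value for Clec4e (3.57) and for the relative levels of Clec4a2 (-2.36) and Clec4n (-1.36). Relative to homeostatic markers, Clec4n missed the threshold (-1.06). The relative levels of Clec4a1 (-0.35) and Clec12a (-0.24) changed sign with 2 counts added, and those of Clec4d and Clec4e shrank to 0.50 and 0.023. With the mean log2 reference, those of Clec5a (-0.078) and Clec12a (-0.21) changed sign. The cause was not tested. Leaving out each mouse gave log2 fold changes of 3.37 to 4.48 for Clec12a, 2.91 to 3.93 for Clec4a1 (highest without Sham mouse 1), 0.50 to 1.08 for Clec4a2 and 1.42 to 2.50 for Clec4n, and log2 lower bounds against 3 counts per Sham library of 3.56 to 4.67 for Clec4d and 2.92 to 3.97 for Clec4e. It gave relative levels of -0.50 to 0.88 for Clec4a1, -0.53 to 0.57 for Clec12a, 1.13 to 3.35 for Clec4d, 0.91 to 2.39 for Clec4e and -1.60 to -1.01 for Clec4n. It gave 3 to 7 members and 7 to 14 other lectin genes called. With thinned counts Clec4a1 failed the filter, and most fits left Clec4d and Clec4e untested. No member had over 40 counts in any Sham library, and Clec5a kept its call under every alternative that was run.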
